A study of Rattus norvegicus with 30 samples.

Results

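Urinary exosome miRNAs (exo-miRs) of sham-operated rats were followed in 15 of the 30 libraries of the series, those of sham rats 3, 6 and 9 on days 1, 2, 3, 7 and 14 after the operation. The sham group consisted of male Sprague Dawley rats that underwent the operation without clamping of the renal pedicles, and the other 15 libraries came from rats 1, 2 and 13, the renal ischemia/reperfusion injury (IRI) group, in which both pedicles were clamped and released. The paper names no transgene for these rats. The same animals were sampled on each day, so a day has 3 animals of a group and no more. Sham rats had been opened on day 0, so days 1 and 2 are early days after surgery and not an unoperated state, and no library from before the operation was analysed here. Urine was collected over 6 hours, small RNA was isolated from it with a urine exosome kit, and miRNA libraries were sequenced. The tables of days 1, 2, 3, 7 and 14 listed 110, 86, 72, 68 and 79 miRNAs. The 56 miRNAs listed on all 5 days were taken, of 122 listed on any day, and each library was scaled to a sum of 1000000 over these 56, so that a level is given in parts of 1000000 (ppm) and 1% of the signal is a level of 10000 ppm.

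A mature miRNA is cut from a hairpin precursor, which can give a product from its 5p and from its 3p arm, and it guides silencing of mRNAs mainly through its seed, bases 2 to 8 counted from the 5′ end. Members of a family share the seed and are thought to share many targets. Exosomes are small vesicles released by cells, and those in urine come largely from the epithelium that lines the nephron and the urinary tract. let-7, the family that dominated these libraries, is known for restraining growth and for its mutual inhibition with the RNA-binding protein Lin28.

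Mature sequences were found for 46 of the 56 miRNAs in RefSeq (rat build GRCr8), and these carried 93.6% of the sham signal. The 8 let-7 members are shown first because they made up most of the signal and differ from each other at few bases, with the seed in capitals.
let-7f-5p: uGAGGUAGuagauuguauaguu
let-7c-5p: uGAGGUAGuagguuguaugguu
let-7a-5p: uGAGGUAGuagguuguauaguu
let-7b-5p: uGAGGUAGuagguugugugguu
let-7i-5p: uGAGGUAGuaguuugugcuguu
let-7e-5p: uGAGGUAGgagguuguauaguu
let-7g-5p: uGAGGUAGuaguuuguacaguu
let-7d-5p: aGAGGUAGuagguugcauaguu
With positions counted from 1 at the 5′ end and let-7a-5p as the base of the comparison, let-7f-5p differs by G12A alone, let-7c-5p by A19G alone and let-7e-5p by U9G alone, and let-7b-5p by A17G and A19G. A read with a wrong base at such a position can be counted for another member, so the level of a single let-7 member is less certain than that of the family.

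The next most abundant miRNAs with a sequence are shown because they led the rest of the signal, and no pair of them shares a seed.
miR-378a-3p: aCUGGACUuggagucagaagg
miR-26a-5p: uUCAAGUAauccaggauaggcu
miR-30a-5p: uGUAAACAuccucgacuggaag
miR-21-5p: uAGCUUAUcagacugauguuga
miR-10a-5p: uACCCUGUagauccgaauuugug
miR-16-5p: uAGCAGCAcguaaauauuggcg
miR-192-5p: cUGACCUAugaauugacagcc
The miRNAs on which the comparisons between days, rats and operations turn are these, of which miR-125b-5p and miR-351-5p share the seed CCCUGAG.
miR-24-3p: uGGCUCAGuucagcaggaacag
miR-26b-5p: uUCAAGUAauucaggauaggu
miR-148a-3p: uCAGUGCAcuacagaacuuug
miR-125b-5p: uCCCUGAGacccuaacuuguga
miR-351-5p: uCCCUGAGgagcccuuugagccuga

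By the reads recovered from the scaled values, the libraries were shallow. That the step used for this is 1 read was not checked against raw counts. The paper's motif search kept exo-miRs by a minimum total sequence count. Most of the exo-miRs it kept would not reach that minimum by the recovered reads. Whether its counts and the recovered reads have the same unit was not tested. The depths, floors and counting errors given here hold only if the step is 1 read. Low values of a library were whole multiples of a fixed step (829 of 829 sham values worth up to 20 reads, within 0.1 of a read), and with that step as the worth of 1 read the 56 miRNAs amounted to 207 to 2034 reads in a sham library (median 883) and 15188 reads in all. The shallowest sham libraries were rat 3 on day 7 (207 reads) and rat 9 on day 3 (283 reads). A read was worth 492 to 4831 ppm, so a value of 0 allowed a level of up to 1475 to 14493 ppm, the worth of 3 reads, depending on the library. Days 7 and 14 held 4886 reads and days 1 and 2 held 8299 reads, and the mean number of the 56 miRNAs listed at 0 was 7.67 a library on days 7 and 14 against 3.67 on days 1 and 2. The kidney and epithelial origin was checked with marker miRNAs. miR-192-5p and miR-30a-5p of the tubule were above 0 in 15 of 15 sham libraries. miR-194-5p was above 0 in 9 of 12 libraries of the tables that list it and miR-204-5p in 1 of 3. Of the epithelial list, miR-200a-3p, miR-200b-3p and miR-203a-3p were above 0 in 15 of 15 libraries. miR-429 was above 0 in 14 of 15, miR-200c-3p in 13 of 15, miR-141-3p in 12 of 15 and miR-205 in 8 of 12. Of the red-cell list, miR-16-5p was above 0 in 15 of 15 libraries and miR-486 in 5 of the 6 libraries of the tables that list it (days 1 and 3), while miR-451-5p and both arms of miR-144 were listed on no day. The endothelial miR-126a, the muscle miRNAs miR-143-3p, miR-145-5p, miR-1-3p and miR-133, the liver miR-122-5p and 4 of the 5 white-cell markers were listed on no day, and miR-142-3p, the white-cell marker that was listed, was above 0 in 4 of 9 libraries.

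The recovered reads of 7 miRNAs came only in larger steps, which was noticed after the values were seen. Among values of up to 400 reads in all 30 libraries, every value above 0 of miR-181a-5p (28 values), miR-30c-5p (28), miR-196b-5p (29), miR-125b-5p (22), miR-351-5p (20) and miR-24-3p (18) was an even number of reads, and every one of the 21 values of miR-29b-3p was a multiple of 3. let-7a-5p was even in 20 of 24 values and miR-103-3p in 24 of 27, whereas in the other 47 miRNAs between 23.1% and 65.5% of the values were even (median 44.8%). Of those 7, RefSeq places the mature sequences of miR-181a-5p, miR-30c-5p, miR-24-3p and miR-29b-3p at 2 loci each, and the other 3 at 1 locus. let-7a-5p, let-7c-5p, let-7f-5p and miR-92a-3p have 2 loci as well, and in the last 3 of these 47.8%, 65.2% and 36.7% of the values were even. Whether reads were counted at more than 1 locus was not tested. If so, the number of independent reads of the 7 would be the recovered number divided by the step, and they carried 3.26% of the sham signal.

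let-7 miRNAs made up 58.4% ± 2.34 (SD over 3 rats) of the sham signal, and 4 of them, let-7f-5p, let-7c-5p, let-7a-5p and let-7b-5p, made up 55.9% ± 2.18 on their own. let-7f-5p stood at 18.4% ± 2.16 and let-7c-5p at 18.4% ± 4.08, so neither ranked above the other beyond the spread between rats. let-7a-5p at 10.01% ± 0.404 and let-7b-5p at 9.05% ± 0.918 followed. The fifth was miR-378a-3p at 6.18% ± 1.71, a miRNA encoded within Ppargc1b and known for a part in mitochondrial metabolism. From there the levels dropped to 2.82% ± 0.171 for miR-26a-5p, 2.46% ± 0.25 for the tubule miRNA miR-30a-5p and 2.43% ± 1.05 for miR-21-5p, which is known to be induced in injured kidney. miR-10a-5p of the Hox clusters had 2.08% ± 0.521, miR-16-5p, a cell-cycle regulator abundant in blood cells, had 1.73% ± 0.353, miR-192-5p, enriched in tubules, had 1.66% ± 0.578, and miR-200a-3p, which holds epithelial identity by repressing Zeb1 and Zeb2, had 1.61% ± 0.561. Neighbouring ranks from miR-30a-5p down to miR-200a-3p differed by less than their SDs. The 12 named here held 76.9% ± 1.41 of the signal, the first 20 held 86.3% ± 1.01 and the first 30 held 92.9% ± 0.914. The 38 miRNAs below 1% shared 15.4%, and 26 of the 56 miRNAs were above 0 in every sham library.

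**Figure D1:**
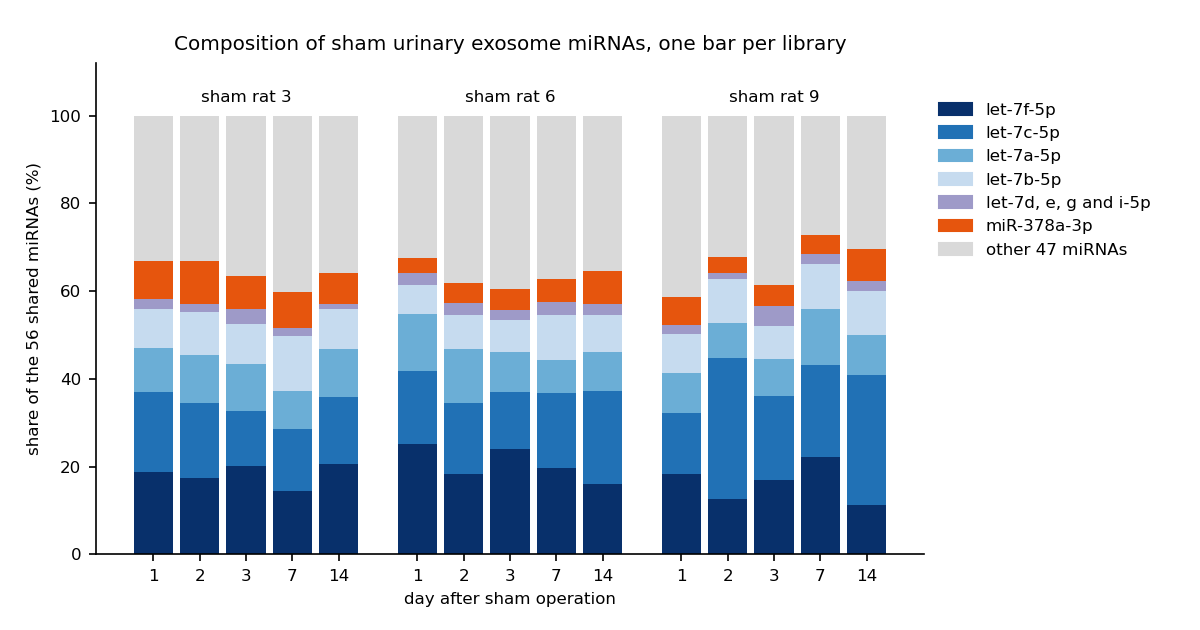
Share of the 56 shared miRNAs in each of the 15 sham libraries (vertical axis, percent), with a bar for each library, grouped by rat and ordered by day. Blue and purple segments are let-7 members, and together they reach between 51.7% (rat 3, day 7) and 68.4% (rat 9, day 7).

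The let-7 family share was 58.3%, 57.2%, 55.9%, 51.7% and 57.2% in rat 3 on days 1, 2, 3, 7 and 14. In rat 6 it was 64.2%, 57.2%, 55.7%, 57.5% and 57.2%, and in rat 9 it was 52.2%, 64.2%, 56.5%, 68.4% and 62.4%. In rats 3 and 6 the share lay between 55.7% and 58.3% except on day 7 in rat 3 and on day 1 in rat 6, while rat 9 had the highest share and, on day 1, the lowest but 1. The lowest share, in the shallowest library, had a 95% Wilson interval of 44.9% to 58.4%, and the highest one of 64.7% to 71.9%, intervals that cover counting error only. They take each recovered read as independent, which was not tested for let-7a-5p with its mostly even numbers. The family share was 59.1% ± 5.69 on days 7 and 14 against 58.9% ± 1.58 on days 1 and 2 (SD, 3 rats), a difference of 0.191 percentage points ± 6.1, higher on the later days in 1 of 3 rats.

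The balance within the family moved more than its sum. let-7c-5p was at 182525, 171344, 124576, 140096 and 152298 ppm in rat 3 in day order, at 165684, 162357, 127837, 172200 and 209890 in rat 6, and at 138048, 320023, 190811, 208790 and 295490 in rat 9. The levels of rat 9 on days 2 and 14 were above all others. let-7f-5p was at its lowest in the same 2 libraries, 126731 and 113531 ppm, against 144928 to 251230 in the rest. The ratio of let-7c-5p to let-7f-5p was therefore 2.53 and 2.60 in rat 9 on days 2 and 14, and 0.53 to 1.3 in the rest (median of all 15 libraries 0.937). These libraries were singled out after their values were seen, and rat 9 on day 2 is among the deeper ones with 1878 reads. In the GRCr8 genome let-7c-5p and let-7f-5p lie in separate clusters. let-7a-1, let-7f-1 and let-7d lie within 2150 bases on chromosome 17 (16320145 to 16322294, plus strand), and let-7c-2 and let-7b within 430 bases on chromosome 7 (118683636 to 118684065, plus strand). Sharing a cluster did not go with a like level: let-7f-5p ranked 1 and let-7d-5p ranked 55 of 56, with 15 reads in all libraries together. let-7a-5p, let-7c-5p and let-7f-5p each have a further locus elsewhere, so that a level cannot be assigned to a cluster.

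Seeds were shared by 20 of the 46 miRNAs with a sequence, in 6 groups that held 69.5% of the signal. The 10 miRNAs without a sequence were left out, so these values and the seed shares below are lower bounds. Among the 10 were miR-30d-5p of the miR-30 family (1.6% of the signal) and miR-200a-3p, miR-200b-3p and miR-429 of the miR-200 family. After the GAGGUAG seed of let-7 came UCAAGUA of miR-26a-5p and miR-26b-5p (4.04% of the signal), GUAAACA of miR-30a-5p, miR-30e-5p and miR-30c-5p (3.61%), CCCUGAG of miR-125a-5p, miR-125b-5p and miR-351-5p (1.71%), AGGUAGU of miR-196b-5p and miR-196a-5p (1.12%) and AGCACCA of miR-29b-3p and miR-29a-3p (0.672%). Pairs that differ at a single base include miR-30a-5p and miR-30e-5p (C13U) and miR-196b-5p and miR-196a-5p (C12A). The motif GGAG, described in T cells as a signal for loading into exosomes, was searched in the mature sequences as written. It was found in 4 of 46 (8.7%), namely miR-378a-3p, let-7e-5p, miR-3473 and miR-351-5p, against 56 of 692 rat mature miRNAs (8.09%), and the 4 carried 7.71% of the sham signal, most of it miR-378a-3p. GGAG or its variant GGAC or GGGC or GGGG was found in 7 of 46 (15.2%), against 152 of 692 (21.97%), and these 7 carried 9.11% of the signal. These variants spell out the motif GGRS, which the paper reports as enriched in its exo-miRs against miRNAs that it did not find. Its set and its background differ from those used here, so the shares cannot be set against its result. Both searches are descriptions of the letters, with no test.

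Other families were described by their summed share. The miR-30 family, abundant in podocytes and tubules, held 5.21% ± 0.371, the Hox-cluster miRNAs miR-10 and miR-196 held 4.41% ± 0.739, and the miR-26 family held 4.04% ± 0.349. The miR-200 family had 3.28% ± 0.979, with a range over libraries of 1.41% to 8.25%, the highest in rat 9 on day 2 and the lowest in rat 9 on day 7. Lower shares were those of the miR-125 and miR-99 families (2.13% ± 0.369), the miR-183 cluster, known from sensory epithelia (1.57% ± 0.489), the miR-23b cluster (1.19% ± 0.297), the antifibrotic miR-29 family (0.672% ± 0.363) and miR-92a-3p with miR-93-5p of the miR-17 superfamily (0.532% ± 0.158). Where both arms of a hairpin were listed, the 5p arm was the higher one over all libraries. miR-30a had 352 reads of its 5p and 51 of its 3p arm, with the 5p arm higher in 15 of 15 libraries. miR-30e had 94 and 39 reads (5p higher in 11 libraries, 3p in 4), and miR-423 had 44 and 23 (5p higher in 9, 3p in 3).

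**Figure D2:**
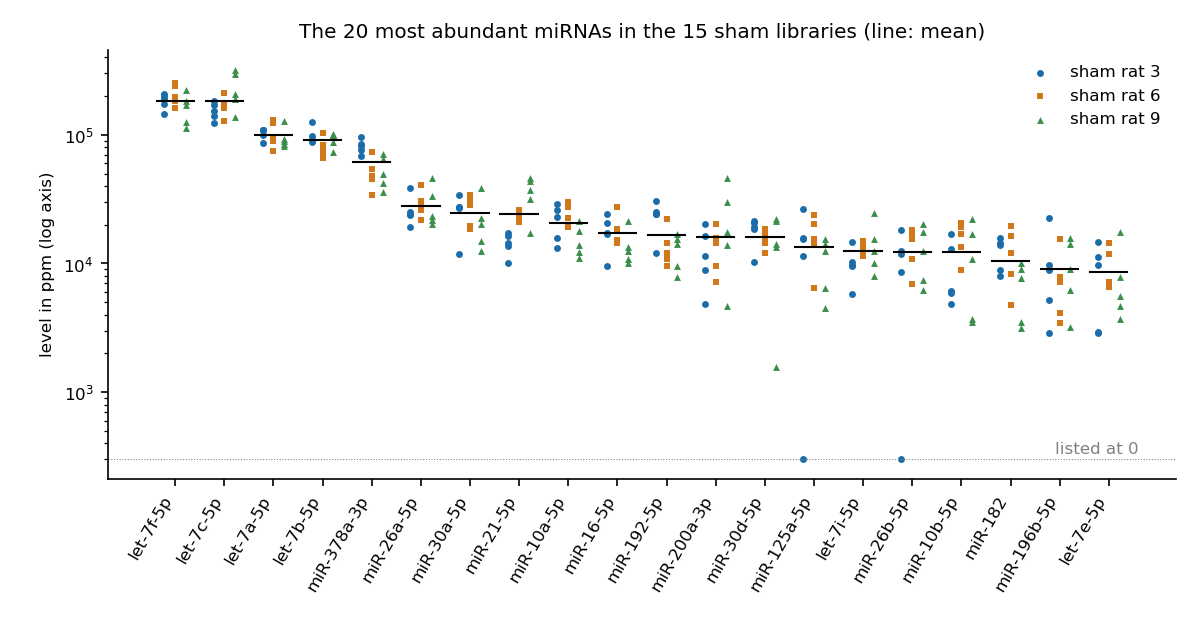
Level in ppm (log axis) of the 20 most abundant miRNAs in each of the 15 sham libraries, with points for libraries, coloured by rat, and a line for the mean. The first 4 miRNAs are let-7 members with levels of 65880 to 320023 ppm, and miR-125a-5p and miR-26b-5p were each listed at 0 in 1 library, rat 3 on day 7.

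Among the 20 most abundant miRNAs, let-7b-5p, let-7a-5p and let-7f-5p were the steadiest by the SD of the log2 level over the 15 libraries (0.24, 0.24 and 0.32). The most variable by this SD were miR-125a-5p (1.4), a miRNA that represses Lin28, miR-26b-5p (1.32) and miR-200a-3p (0.87). The first 2 of these were at 0 in the library of rat 3 on day 7. miR-200a-3p was at 16436, 8862, 20385, 4831 and 11495 ppm in rat 3 in day order, at 15732, 9621, 7169, 14523 and 20126 in rat 6, and at 30304, 46326, 17668, 4710 and 13996 in rat 9. Its level in rat 9 on day 2 rested on 87 reads and was the highest of the 15. Spread beyond counting error was described with the index of dispersion of the recovered reads, which is 1 where libraries differ by counting error only. It was above 2 in 31 of 56 miRNAs and in 17 of the 20 most abundant (median 2.05, range 0.572 to 19.98), and it was above 2 in 18 of 56 once each miRNA's most deviant library was left out. The largest index was that of let-7c-5p, 19.98 with all libraries and 8.26 without rat 9 on day 2, while miR-26a-5p had 1.37 and let-7b-5p 2.04. let-7f-5p and let-7a-5p, among the steadiest by the SD, had indices of 9.26 and 3.53, and let-7i-5p had 0.92. The SD includes counting error, which is relatively smaller for miRNAs with many reads. Multiples of 2 or 3 reads raise the index of the miRNAs concerned.

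Over the 3 rats together, libraries of the same rat were about as unlike as other libraries, while by their medians pairs within rats 3 and 6 were more alike. The Bray-Curtis distance, the share of the signal placed on different miRNAs, had a median of 17.4% over the 30 pairs from the same rat, 19.2% over the 15 pairs from the same day and 18.5% over the 60 other pairs. Without the 2 shallowest libraries the medians were 15.2%, 17.3% and 17.8%. Pairs within rat 9 were the farthest apart (median 23.3%), against 15.3% within rat 3 and 14.9% within rat 6.

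No exo-miR passed the test between days 7 and 14 and days 1 and 2 in sham rats. This comparison used the recovery and injury days of the IRI rats in animals without ischemia, with the mean of the log2 levels of days 7 and 14 less that of days 1 and 2 taken within each rat. At an adjusted p under 0.05 (limma, Benjamini-Hochberg over 56 miRNAs) 0 of 56 passed (0%), and 3 had an unadjusted p under 0.05 (5.36%). The smallest adjusted p was 0.511. The standard error of a log2 change was 0.48 to 0.82 (median 0.55), and the median change over the 56 miRNAs was -0.06, or -0.27 with each library recentred on its median miRNA. In all 3 rats the change was upward for 7 miRNAs (12.5%) and downward for 5 (8.93%), and the rat means of the 2 periods did not overlap, with the later days higher, for 2 (3.57%) and, with the later days lower, for 1 (1.79%).

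miR-30e-3p, the opposite arm of a miR-30 hairpin, had the smallest p. On days 7 and 14 it was at 4831 and 5747 ppm in rat 3, 6224 and 575 in rat 6, and 6280 and 6221 in rat 9. On days 1 and 2 it was at 3460 and 0 in rat 3, 983 and 1804 in rat 6, and 0 and 3195 in rat 9. All later values but that of rat 6 on day 14 were above all early ones. That of rat 3 on day 7 was 1 read in the shallowest library, where any read was worth more than every early value. On the scale of log2(level + 500) the change was 1.63, upward in 3 of 3 rats (SE 0.55, limma adjusted p = 0.511), and rested on 20 reads on days 7 and 14 and 15 on days 1 and 2. The other miR-30 opposite arm, miR-30a-3p, had a change of 0.48 (upward in 2 of 3 rats, limma adjusted p = 0.92). The pair summed to 0.891% ± 0.154 of the signal on days 7 and 14 against 0.399% ± 0.168 on days 1 and 2 (SD, 3 rats), higher in 3 of 3 rats. This sum includes miR-30e-3p, which was named for its rise, so it is no separate support. The miR-30 5p arms held 4.77% ± 0.9 on days 7 and 14 against 4.9% ± 0.457 on days 1 and 2.

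miR-24-3p came next at 1.55, upward in 3 of 3 rats (SE 0.54, limma adjusted p = 0.511). It is encoded with miR-27b and miR-23b within 754 bases on chromosome 17 (GRCr8) and again on chromosome 19. Its level cannot be assigned to either locus. On days 7 and 14 it was at 0 and 14368 ppm in rat 3, 2075 and 1150 in rat 6, and 0 and 3111 in rat 9. On days 1 and 2 it was listed at 0 in all libraries but that of rat 6 on day 2, which had 2405. The periods thus overlapped in single libraries, and the 16 later and 4 early reads amount to 8 and 2 steps of 2 reads. The change of miR-27b-3p was 0.75 (limma adjusted p = 0.835, 3 of 3 rats upward) and that of miR-23b-3p 0.73 (2 of 3 rats). The miR-23b cluster held 1.65% ± 0.753 of the signal on days 7 and 14 against 0.743% ± 0.157 on days 1 and 2, higher in 3 of 3 rats. In rat 3 on day 14 it held 3.59%. That sum includes miR-24-3p and miR-27b-3p, both named for rising in all 3 rats, so it is no separate support. The Hox-cluster share was higher on the later days in 3 of 3 rats as well, and the miR-26 share in 0 of 3. Without day 14, the change of miR-24-3p was 0.37.

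The other miRNAs with an upward change in all 3 rats that the naming rule took were miR-3473 (0.85) and miR-103-3p (0.84), which regulates Dicer in human cells, both with an adjusted p of 0.835 from limma. For miR-103-3p the change was 2.39 in rat 6, 0.13 in rat 3 and 0.0012 in rat 9, so 1 rat carried it. Rat 6 was run in lane 3 on days 1 and 2 and in lane 4 on days 7 and 14. Period and lane cannot be told apart in that rat. Leaving out 1 rat also put the change of miR-3473 at 0.42 (without rat 9) and that of miR-27b-3p at 0.39 (without rat 3). These directions are those of the mean log2 levels. In rat 9 the mean of the levels themselves went the other way for miR-27b-3p (3910 ppm on days 7 and 14 against 4727 on days 1 and 2) and miR-103-3p (3125 against 3310). Downward in all 3 rats were miR-26b-5p (-1.23, SE 0.61, limma adjusted p = 0.715), let-7g-5p (-0.77), miR-221-3p, which represses the cell-cycle inhibitor p27 (-0.68), miR-148a-3p, which represses the DNA methyltransferase Dnmt1 (-0.65), and miR-99b-5p of the mTOR-targeting miR-99 family (-0.27), the last 4 with adjusted p of 0.835 to 0.966 from limma. The mean level of miR-99b-5p was nevertheless higher on days 7 and 14 in rat 3 (8683 ppm against 7892 on days 1 and 2) and in rat 9 (3140 against 1921), and in rat 6 so were those of miR-148a-3p (3394 against 3279) and miR-221-3p (863 against 847). Without rat 9 the change of miR-148a-3p was -0.26. miR-26b-5p was at 0 and 8620 ppm in rat 3, 15560 and 6900 in rat 6, and 12559 and 6221 in rat 9 on days 7 and 14. On days 1 and 2 it was at 18166 and 11817 in rat 3, 18190 and 10824 in rat 6, and 20202 and 7455 in rat 9. The value of 0, in the shallowest library, gave the change of rat 3, -2.83, and the change was -0.44 without rat 3 and -0.53 without the 2 shallowest libraries. For its seed partner miR-26a-5p the change was -0.12.

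miR-125b-5p had the third unadjusted p under 0.05 and is outside the naming rule, so it was named after its values were seen. Its change was -1.80 (SE 0.68, limma adjusted p = 0.511), with -2.47 in rat 3, 0.18 in rat 6 and -3.10 in rat 9. It was above 0 in 2 of 6 libraries of days 7 and 14 against 6 of 6 of days 1 and 2, with 4 and 12 steps of 2 reads. Over the 4 listed members of the miR-125 and miR-99 families the changes were -0.27 to -1.80 (median -0.77), although miR-125a-5p was upward in 2 of 3 rats.

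**Figure D3:**
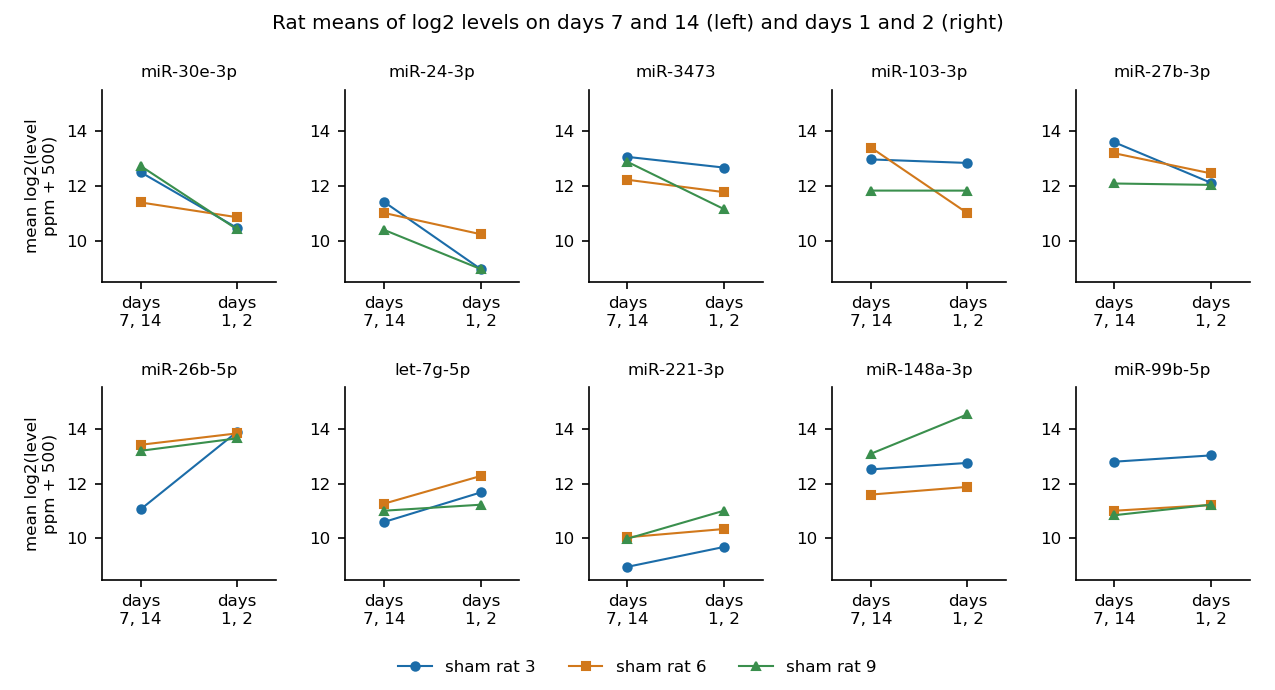
Rat means of log2(level in ppm + 500) on days 7 and 14 (left) and days 1 and 2 (right) for the 5 miRNAs with the largest upward change (top) and the 5 with the largest downward change (bottom) among those that moved the same way in all 3 sham rats, with a line for each rat. For miR-30e-3p, miR-24-3p and miR-26b-5p the rat means of the 2 periods do not overlap, and for the other 7 they do.

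None of the most abundant miRNAs came near the threshold. The log2 changes of let-7f-5p, let-7c-5p, let-7a-5p and let-7b-5p were -0.09, 0.06, -0.14 and 0.23, that of miR-378a-3p was 0.20, that of miR-192-5p 0.04 and that of miR-21-5p -0.42, with standard errors of 0.48 to 0.50. With such errors, changes of this size were not detectable. let-7b-5p was at 100722 ± 7367 ppm on days 7 and 14 against 86149 ± 12236 on days 1 and 2 (SD, 3 rats) and was higher in 3 of 3 rats. miR-21-5p was at 21038 ± 7818 ppm on days 7 and 14 against 28441 ± 14770 on days 1 and 2. Counts by family were 0 of 8 let-7, 0 of 5 miR-200, 0 of 4 Hox-cluster, 0 of 4 miR-30 and 0 of 2 miR-26 members past the threshold. Upward and downward changes were 4 and 4 in let-7, 3 and 2 in miR-200, 2 and 2 in the Hox clusters, 1 and 3 in miR-30 and 0 and 2 in miR-26.

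No miRNA passed the test between the 3 sham rats at an adjusted p under 0.05 either (0 of 56, 0%, limma F-test with day in the fit), but 10 had an unadjusted p under 0.05 (17.9%). miR-148a-3p had the smallest p (F = 10.3, adjusted p = 0.167 from limma). It was at 6921, 5908, 1132, 9662 and 2873 ppm in rat 3 in day order, 2950, 3608, 0, 1037 and 5751 in rat 6, and 16835, 31417, 7067, 4710 and 13996 in rat 9. Rat 9 had the highest level of the 3 rats on days 1, 2, 3 and 14 and not on day 7. miR-21-5p followed (F = 7.87, adjusted p = 0.199 from limma) with 17302, 16249, 13590, 14493 and 10057 ppm in rat 3, 21141, 25857, 22700, 21784 and 25302 in rat 6, and 43771, 46326, 31802, 17269 and 37326 in rat 9. Rat 3 was below rat 6 on all 5 days, and rat 9 was above both on all days but day 7. miR-30a-3p averaged 4062 ± 1925 in rat 3, 4362 ± 834 in rat 6 and 1273 ± 1976 ppm in rat 9 (SD over 5 days), miR-99b-5p 7762 ± 4345, 1399 ± 861 and 3438 ± 3077, and miR-141-3p of the miR-200 family 1392 ± 1464, 3275 ± 3362 and 5437 ± 2337 in the same order of rats. The adjusted p was 0.199, 0.207 and 0.267 from limma for these 3. The others with an unadjusted p under 0.05 were miR-196a-5p, miR-328a-3p, miR-29b-3p, miR-182 and miR-125b-5p. The libraries of rat 3 were all run in lane 3 and those of rat 9 all in lane 4, so rat and lane cannot be told apart for them, while rat 6 was run in lane 3 on days 1, 2 and 3 and in lane 4 on days 7 and 14. The count of 0 became 3 with a constant of 5000, 2 with an intensity trend or without rat 3, and 1 with recentring, and miR-148a-3p was past the threshold in each of these 4 (adjusted p of 0.0104, 0.0394, 0.032 and 0.0478 from limma).

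**Figure D4:**
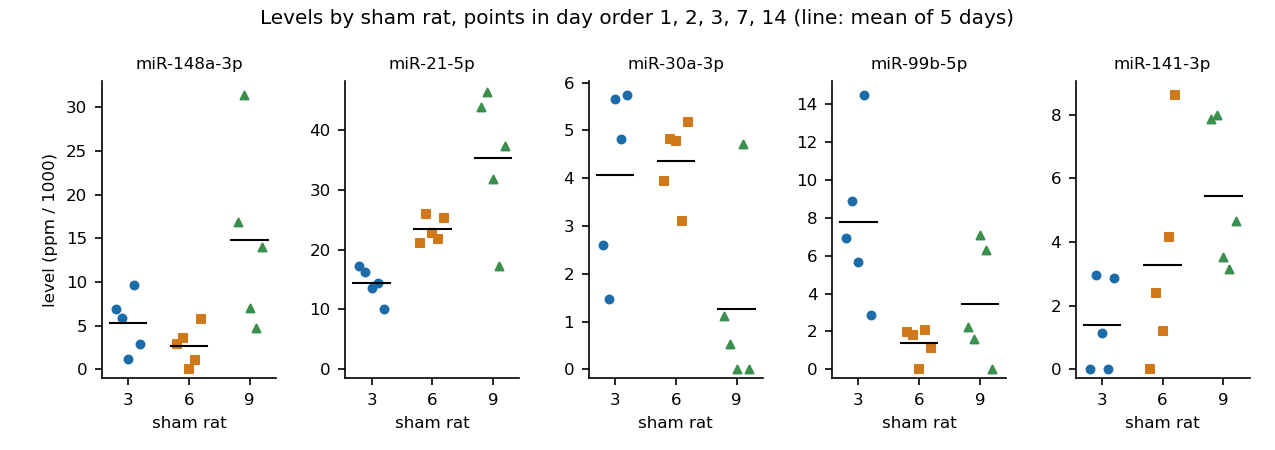
Level in ppm, divided by 1000, of the 5 miRNAs with the smallest p between sham rats, with points for the 5 days in order and a line for the rat mean. miR-21-5p averaged 14338 ppm in rat 3, 23357 in rat 6 and 35299 in rat 9, and each panel shows overlap between at least a pair of rats.

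Between the 5 days, 0 of 56 miRNAs passed at an adjusted p under 0.05 (0%, limma F-test with rat in the fit, smallest adjusted p 0.737) and 3 had an unadjusted p under 0.05 (5.36%). miR-191a-5p had the smallest p (F = 3.71), with means over rats of 4952, 1294, 6591, 2647 and 862 ppm on days 1, 2, 3, 7 and 14. miR-148a-3p had 8902, 13644, 2733, 5136 and 7540 ppm (F = 3.64), and let-7e-5p had 9552, 4432, 13187, 10678 and 4813 (F = 3.43). In day order, none of the 3 moved steadily in 1 direction, and let-7e-5p had its lowest means on days 2 and 14 and its highest on day 3. miR-182 (F = 3.04) had 14536, 11384, 5413, 8644 and 11885 ppm, lowest on day 3. Adjusted p was 0.737 from limma for all 5 named by this test, miR-24-3p included.

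The change in sham rats was set against that in IRI rats, to find whether the changes differed between the groups. This test cannot assign a change to the operation shared by both groups. The difference of the changes passed at an adjusted p under 0.05 for 1 of 56 miRNAs (1.79%, limma), miR-351-5p, a rodent miRNA with the miR-125 seed, and 10 had an unadjusted p under 0.05 (17.9%). In sham rats miR-351-5p was at 0 in 6 of 6 libraries of days 7 and 14 and above 0 in 3 of 6 of days 1 and 2, with levels of 2954, 2950 and 1203 ppm (rat 3 on day 2 and rat 6 on days 1 and 2). On day 3 it was above 0 in 2 of 3 sham libraries, at 4779 in rat 6 and 7067 in rat 9. In IRI rats it was above 0 in all libraries, at 1792 to 19276 ppm on days 7 and 14 (median 9999) and at 41.1 to 2995 on days 1 and 2 (median 1138). The change was -1.22 in sham rats and 2.58 in IRI rats, a difference of -3.80 (SE 0.67, limma adjusted p = 0.0378). The change was downward in 2 of 3 sham rats and 0 in rat 9, and upward in 3 of 3 IRI rats. The sham libraries of days 7 and 14 held 4886 reads with 0 steps of miR-351-5p and the IRI libraries of those days 4542 reads with 19 steps of 2 reads. A level of 0 in a sham library of days 7 and 14 allowed up to 3450 to 28985 ppm, the worth of 3 such steps. Whether miR-351-5p fell in sham rats therefore cannot be told from these values. Group and lane overlapped little, since IRI rat 1 was run in lane 2, IRI rat 2 in lanes 2 and 3 and IRI rat 13 in lanes 4 and 5, and the part of lanes was not tested. The size rests on the constant of 500, from -6.07 with 50 to -1.47 with 5000, and the adjusted p was 0.0858 with 50, 0.166 with a constant of 0.5 read, 0.174 without rat 3 and 0.0554 without rat 6.

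**Figure D5:**
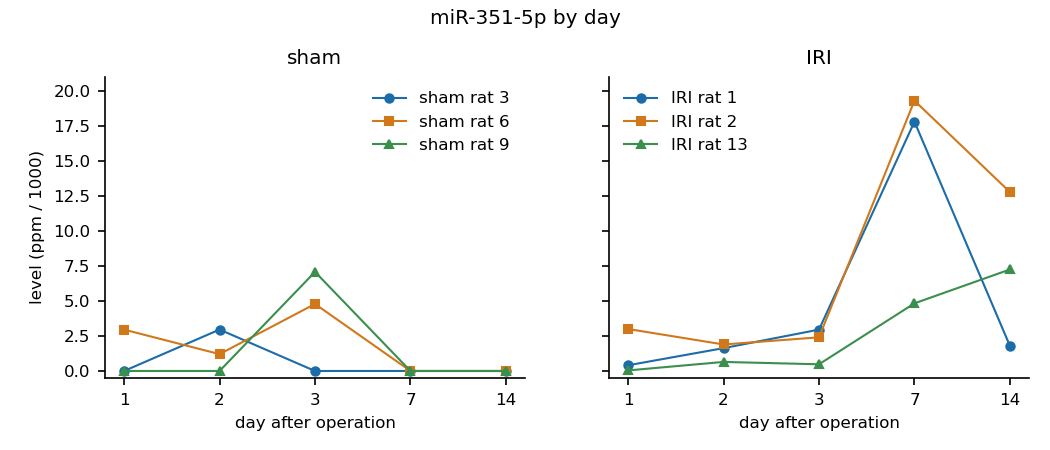
Level in ppm, divided by 1000, of miR-351-5p by day in the 3 sham rats (left) and the 3 IRI rats (right), with a line for each rat. All 6 sham libraries of days 7 and 14 lie at 0, and the 6 IRI libraries of those days lie between 1792 and 19276 ppm.

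Next by p, short of the threshold, were miR-23b-3p (difference 2.84, adjusted p = 0.0822 from limma) and miR-24-3p (1.9, adjusted p = 0.19). miR-23b-3p was at 1150 to 7849 ppm in 6 of 6 sham libraries of days 7 and 14, with 19 reads, and at 1477 to 3460 on days 1 and 2. In IRI rats it was at 0 in 6 of 6 libraries of days 7 and 14 and above 0 in 6 of 6 of days 1 and 2. Its median in the IRI libraries of days 1 and 2 was 1771 ppm. A 0 in an IRI library of days 7 and 14 allowed up to 2688 to 7229 ppm, the worth of 3 reads. Whether miR-23b-3p fell in IRI rats therefore cannot be told from these values. Sham libraries had a median of 670 reads on days 7 and 14 and 1410 on days 1 and 2, against 728 and 9992 reads in IRI libraries, and the part of depth in these differences was not tested. let-7 shares were 59.1% ± 5.69 on days 7 and 14 and 58.9% ± 1.58 on days 1 and 2 in sham rats, against 56.8% ± 2.84 and 51.8% ± 5.48 in IRI rats. miR-378 shares were 6.75% ± 0.792 and 6.21% ± 2.6 in sham rats, against 4.06% ± 0.849 and 1.62% ± 0.959 in IRI rats.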

How the data were processed

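Each deposited table covers 1 day and holds, per the file headers, 6 libraries beside the edgeR results of the authors for IRI against sham (fold change, mean level, test score, p-value, FDR), which were not used. The authors had trimmed the reads (Cutadapt), mapped them to rat (Bowtie and miRDeep2, run through CAP-miRseq) and counted them (HTSeq), with versions not given in the sources used here. The deposited values are these counts after a scaling by the authors whose factor is not given, and were treated as a signal. Sham columns sum to 838549 to 1341220, of which the 56 miRNAs listed on all days held 95.3% to 98.3%, and each column was rescaled to 1000000 over them.

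The values are not counts, so log2(level + 500) was fitted by limma 3.58.1 under R 4.3.3. Adjustment was by Benjamini-Hochberg over 56 miRNAs, with a threshold of 0.05. Python 3.11.15, NumPy 2.4.6 and pandas 2.3.3 made the tables. Days 7 and 14 were set against days 1 and 2 as paired differences of 3 rats, since the labels give the animal. The deviations of an animal's rat means in the periods correlated by -0.01, -0.12 and 0.18 in rats 3, 6 and 9 over 56 miRNAs. F-tests of rat and of day used 15 libraries, and the sham and IRI changes were compared over 6 rats. The p-values of the periods and of sham against IRI rest on the spread between animals. Those of the F-tests rest on the spread among libraries of the same 3 rats. In each test limma drew the spread of a miRNA towards a value common to the 56. The fits were tested on simulated data, and no pair of the 30 libraries was identical.

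Named are the 12 most abundant miRNAs, every miRNA past a threshold, the 5 largest changes in each direction among those alike in 3 rats, the 5 smallest p between rats and between days, and the 3 steadiest and 3 most variable of the 20 most abundant. Members, lists and tests were chosen with earlier results of these data known. Alternatives were constants of 50, 2000, 5000 and 0.5 read, miRNAs above 0 in at least 12 of 15 libraries, scaling to the whole table, values as deposited, recentring, an intensity trend, no pairing, single libraries, weighting by reads, IRI rats in the same fit, and leaving out each rat or day. Leaving out the 2 shallowest libraries and dividing each miRNA by its own step were added after the data were seen.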

Additional observations from a re-analysis of the deposited data

Results flagged for a closer look

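The change of miR-351-5p from days 1 and 2 to days 7 and 14 differed between sham and IRI rats, by -3.80 on the scale of log2(level + 500) in the limma test of the difference itself (adjusted p = 0.0378). The level was higher on days 7 and 14 in 3 of 3 IRI rats. In sham rats it was at 0 in 6 of 6 libraries of days 7 and 14. A 0 there allowed up to 3450 to 28985 ppm, above the highest sham level of days 1 and 2 (2954 ppm). Whether the level fell in sham rats therefore cannot be told. On day 3 it reached 7067 ppm in sham rats. miR-351-5p was the sole miRNA of 56 past the threshold. It had 5 steps of 2 reads in the sham libraries of days 1 and 2 and 0 on days 7 and 14. It was not past the threshold with a constant of 50 or of 0.5 read, or without rat 3 or rat 6.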

How the results depend on the processing

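The sham comparisons of periods and of days stayed at 0 miRNAs past the threshold under every alternative, except that a constant of 0.5 read gave 1 between periods (miR-24-3p, 2.28, limma adjusted p = 0.03). Between rats, 0 became 3 with a constant of 5000, 2 with an intensity trend and 1 with recentring, and leaving out 1 rat gave 0 to 2. Between sham and IRI changes, 1 (miR-351-5p) became 2 with values as deposited (miR-351-5p and miR-23b-3p) and 2 with a constant of 50 (miR-23b-3p and miR-24-3p, without miR-351-5p), and 0 with a constant of 0.5 read or with miRNAs above 0 in at least 12 of 15 sham libraries, a set without miR-351-5p. Leaving out 1 rat gave 0 to 1, with 0 without rat 3 and miR-23b-3p in place of miR-351-5p without rat 6. Without the replicate block, which here is the pairing by rat, the counts were 0 between periods, 0 between days and 2 between sham and IRI changes (miR-351-5p and miR-23b-3p). Counts at an unadjusted p under 0.05 ranged from 1 to 6 between periods, 5 to 11 between rats, 0 to 6 between days and 5 to 12 between sham and IRI changes, against 3, 10, 3 and 10. Leaving out the 2 shallowest libraries gave 5, 6, 6 and 9. That choice and dividing by the step, both made after seeing the data, altered no count past the threshold.

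Scaling to the whole table put the 12 most abundant miRNAs at 74.6% of the signal, against 76.9%, and leaving out 1 rat gave 76.1% to 77.3%. For the let-7 share it gave 57.2% to 59.5%. The change of miR-99b-5p (-0.27) was 0.0014 with a constant of 5000 and 0.82 without day 14, and that of let-7g-5p (-0.77) was 0.0024 without day 7. The cause was not tested, except that the filter tests fewer miRNAs. Depth limits all miRNAs that rest on a few reads, and of the sham libraries that of rat 3 on day 7 was the shallowest.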
